A study of Mus musculus with 6 samples.

Results

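The transcripts described here come from mitochondrial DNA (mtDNA), the small circular genome inside mitochondria. The members were the rows of the gene count table named ND1, ND2, ND4, ND5, COX1, COX2, COX3, ATP6, ATP8 and CYTB, taken by symbol alone, 10 of the 46095 rows. The libraries were made from primary tubular epithelial cells (PTECs) freshly isolated from kidneys of mice aged 10 weeks. In all 6 mice, floxed VHL alleles were deleted by Cre recombinase under the Ksp (cadherin 16) promoter of the renal tubule, and 3 libraries carry this genotype alone (VHL-KO, replicates 1, 2 and 4). The other 3 (VHL-KO;SETD2-KO, replicates 2, 3 and 4) are labelled as lacking Setd2 as well, a gene whose product trimethylates lysine 36 of histone H3. The study sequenced these libraries to learn what loss of Setd2 changes in tubular cells that already lack VHL, so no library with intact VHL was compared here.

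Mammalian mtDNA encodes core subunits of complexes I, III, IV and V of oxidative phosphorylation, together with the ribosomal and transfer RNAs needed to translate them. Each strand is transcribed as a long precursor, which is cut into messages, mostly at the transfer RNAs. Neighbouring genes that overlap are not all cut apart, and complex II has no mtDNA-encoded subunit. Proximal tubule cells are rich in mitochondria, and their sodium-driven reabsorption depends on oxidative phosphorylation.

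The genes lie on chrM (GRCm38, GENCODE M21) and have no introns. ND1 spans positions 2751 to 3707, ND2 spans 3914 to 4951, COX1 spans 5328 to 6872 and COX2 spans 7013 to 7696. ATP8 spans 7766 to 7969, ATP6 spans 7927 to 8607 and COX3 spans 8607 to 9390. ND4 spans 10167 to 11544, ND5 spans 11742 to 13565 and CYTB spans 14145 to 15288. All 10 are on the + strand of the annotation, while ND6, the 1 protein gene on the other strand, is no member.

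Several members share sequence with each other or with nuclear DNA, and the stretches below are shown because a read from them has more than 1 possible origin. The annotated sequences of ATP8 and ATP6 overlap by 43 bases, which are in capitals here within chrM:7907-7989 (+ strand).
ATP8/ATP6 overlap: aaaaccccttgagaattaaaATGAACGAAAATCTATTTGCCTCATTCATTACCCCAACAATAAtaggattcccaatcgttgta
A nuclear copy of part of mtDNA lies on chromosome 1 between positions 24611535 and 24616197 (GRCm38, - strand) and holds 7 annotated pseudogenes, of COX1, COX2, ATP6, COX3, ND3, ND4L and ND4. The first 60 bases of COX2 (chrM:7013-7072, + strand) and the matching stretch of its chromosome 1 copy Gm28661 (chr1:24615506-24615565, - strand) were identical.
COX2: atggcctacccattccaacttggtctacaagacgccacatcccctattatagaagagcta
Gm28661: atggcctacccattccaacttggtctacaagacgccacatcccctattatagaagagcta
For contrast, the closest annotated copy of CYTB, Gm11410 on chromosome 4 (chr4:80003990-80004049, + strand), differed from CYTB (chrM:14146-14205, + strand) at the 3 bases in capitals.
CYTB: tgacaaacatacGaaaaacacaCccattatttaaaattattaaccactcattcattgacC
Gm11410: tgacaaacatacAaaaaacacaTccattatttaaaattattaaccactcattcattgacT

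Setd2, the gene that the labels set apart, stood at 71.5, 73.9 and 12.3 CPM (the normalised read count, scaled to a common library size with TMM factors) in VHL-KO replicates 1, 2 and 4, against 79.6, 57.4 and 89.6 CPM under the VHL-KO;SETD2-KO label, so its count was not lower under the Setd2 deletion label. A count over the whole gene need not fall where only a floxed part is deleted, or only in some of the cells. Whether either applies to these libraries was not tested. The log2 fold change of Setd2 (VHL-KO;SETD2-KO over VHL-KO, as everywhere below) was 0.52, with an adjusted p of 0.787 (edgeR quasi-likelihood test, Benjamini-Hochberg over all tested genes), and 0.05 without VHL-KO replicate 4. Vhl ranged from 11.9 to 25.8 CPM over the 6 libraries and carries the same label in both groups. The totals were between 11168552 and 17883466 counts per library. VHL-KO replicate 4 stood apart from the other 5 libraries, and the values it moved most are given below with and without it. No marker of the cell types checked was at 0 in any library, and the 10 proximal tubule markers summed to 33779 to 39258 CPM under VHL-KO and 10490 to 15580 CPM under VHL-KO;SETD2-KO.

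No mtDNA member passed the test between the labels. All 10 were tested, 7 had a positive and 3 a negative log2 fold change (4 and 6 with DESeq2's size factors, 10 and 0 without TMM scaling). Of the 10, 0 were called higher and 0 lower at an unadjusted p under 0.05 with a fold change of at least 1.5, a rule that 2.65% of all tested genes met as higher, 4.68% as lower and 7.33% in either direction (edgeR), and DESeq2 and limma-voom also called 0. At an adjusted p under 0.05, 0.00684% of the tested genes were called and again 0 members (edgeR quasi-likelihood test). Their unadjusted p-values began at 0.523, and their median log2 fold change was 0.04, beside 0.0093 over all tested genes. The 2 groups overlapped in CPM for all 10 members, whereas they did not overlap for 20.6% of the tested genes (9.62% higher and 11% lower).

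Complex I, the NADH dehydrogenase that feeds electrons into the respiratory chain, has 4 members here, all core subunits of its membrane arm. ND1 stood at 44061, 42181 and 28877 CPM in VHL-KO replicates 1, 2 and 4 and at 33103, 23073 and 40802 CPM in VHL-KO;SETD2-KO replicates 2, 3 and 4. The groups overlapped, with the lowest library under the VHL-KO;SETD2-KO label, and the log2 fold change was -0.25 ± 0.53 (SE, n = 3 per group; edgeR adjusted p = 0.871). ND2 had the same lowest library, at 37979, 36209 and 21020 CPM against 29163, 20862 and 37289 CPM. Its groups overlapped over almost their whole range, and its log2 fold change was -0.12 ± 0.54 (SE, edgeR adjusted p = 0.938).

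ND4 and ND5 had another lowest library than ND1 and ND2. ND4 stood at 26569, 23340 and 7272 CPM under VHL-KO and at 20027, 14821 and 23828 CPM under VHL-KO;SETD2-KO. ND5, which lies closer to the end of the heavy-strand precursor, stood at 30593, 29639 and 5808 CPM against 18695, 20061 and 29726 CPM. For both genes, VHL-KO replicate 4 lay below every other library while its 2 group mates were at or near the top. The log2 fold changes were 0.04 ± 0.62 for ND4 and 0.05 ± 0.70 for ND5 (SE, edgeR adjusted p = 0.986 and 0.983), with groups that overlapped.

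CYTB encodes cytochrome b, the mtDNA-encoded subunit of complex III, which passes electrons from ubiquinol to cytochrome c. It stood at 74567, 66530 and 17253 CPM under VHL-KO and at 54427, 44455 and 73168 CPM under VHL-KO;SETD2-KO. VHL-KO replicate 4 held less than any other library and the remaining values interleaved, giving a log2 fold change of 0.12 ± 0.67 (SE, edgeR adjusted p = 0.954).

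Complex IV, cytochrome c oxidase, reduces oxygen at the end of the chain, and COX1, COX2 and COX3 form its catalytic core. COX1 had the most counts of all members, at 158171, 138365 and 55419 CPM under VHL-KO against 110746, 99599 and 147664 CPM under VHL-KO;SETD2-KO. Its groups overlapped, and its log2 fold change was 0.02 ± 0.62 (SE, edgeR adjusted p = 0.992). COX2 stood at 719, 629 and 308 CPM against 625, 316 and 755 CPM, and COX3 at 305, 249 and 157 CPM against 241, 154 and 291 CPM. In both genes VHL-KO replicate 4 and VHL-KO;SETD2-KO replicate 3 were the low libraries, 1 under each label, and the log2 fold changes were 0.03 ± 0.53 and -0.05 ± 0.46 (SE, edgeR adjusted p = 0.985 and 0.975).

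Complex V, the ATP synthase, uses the proton gradient to make ATP, and ATP6 and ATP8 belong to its membrane part. ATP6 stood at 193, 156 and 36.3 CPM under VHL-KO and at 187, 118 and 209 CPM under VHL-KO;SETD2-KO. It had the highest log2 fold change among the members, 0.41 ± 0.62 (SE, edgeR adjusted p = 0.819), and this became -0.03 without VHL-KO replicate 4. ATP8 had only 71, 29 and 15 counts under VHL-KO and 36, 79 and 43 counts under VHL-KO;SETD2-KO, so its levels of 4.30, 2.68 and 1.40 CPM against 1.91, 4.45 and 2.70 CPM carry the widest counting error. The ATP8 groups overlapped, and its log2 fold change was 0.10 ± 0.59 (SE, edgeR adjusted p = 0.956).

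**Figure D1:**
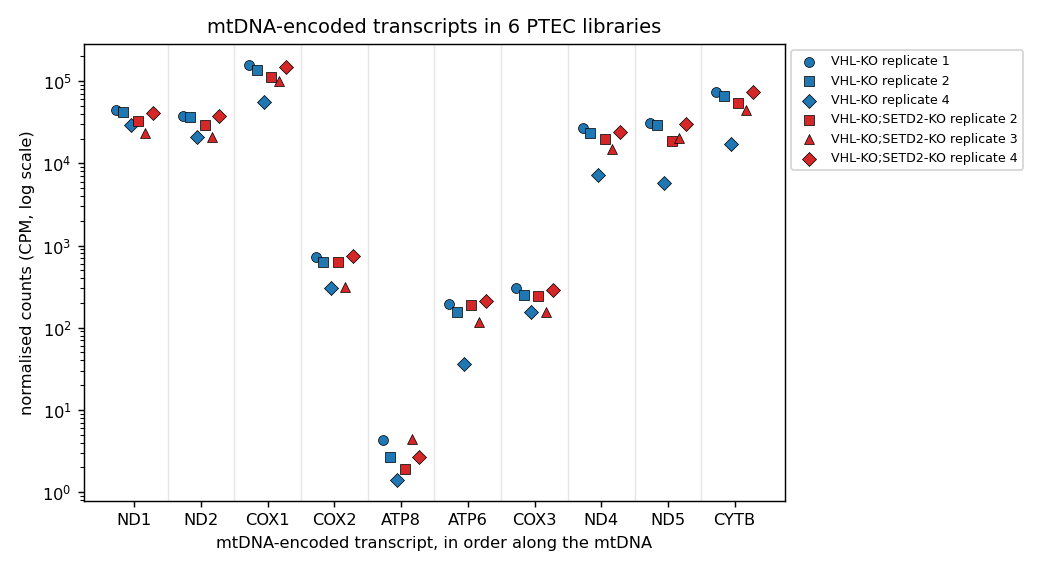
Level of each of the 10 members (CPM, log axis) in each library, with VHL-KO libraries in blue, VHL-KO;SETD2-KO libraries in red and a symbol for each replicate number. The groups overlap for every member, and VHL-KO replicate 4 is the lowest library for ND4, ND5, CYTB, COX1, COX2, ATP6 and ATP8.

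The signs of these differences depended on single libraries. Without VHL-KO replicate 4, all 10 log2 fold changes were negative, from -0.42 to -0.03, with a median of -0.31, unadjusted p-values from 0.330 upwards and 0 calls (edgeR). Without VHL-KO;SETD2-KO replicate 4, 8 were negative and 2 positive, with a median of -0.17 and again 0 calls (edgeR). The spread within VHL-KO differed from gene to gene, with a coefficient of variation of 21.6% for ND1 and 63.8% for ND5, whereas in the VHL-KO;SETD2-KO group it was 27.5% and 26.3%.

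Together the 10 members took a large part of each library. Their summed share of all counts was 34.4, 32.6 and 11.3% in VHL-KO replicates 1, 2 and 4 and 30.1, 25.8 and 36.3% in VHL-KO;SETD2-KO replicates 2, 3 and 4. The means were 26.1 ± 12.9% and 30.7 ± 5.26% (SD, n = 3 per group), a ratio of 1.18 that became 0.917 when VHL-KO replicate 4 was left out. As a share of the TMM-scaled library size, the ratio was 0.997, and 0.792 without that library. The 95% Wilson half-width of a library's sum was at most 0.0275 percentage points, and it covers counting error only, as PCR duplicates could not be told from separate molecules. Fewer cells of a type and less mitochondrial RNA per cell cannot be told apart in such bulk libraries.

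The members did not contribute evenly to that sum. COX1, CYTB, ND1, ND2, ND5 and ND4 made up 99.6 to 99.7% of it in every library, and COX2, COX3, ATP6 and ATP8 the rest. Per kilobase of annotated length, the mean level over the 6 libraries was 76587 CPM for COX1, 48135 for CYTB, 36938 for ND1, 29307 for ND2, 14013 for ND4 and 12292 for ND5. On the same scale COX2 stood at 817, COX3 at 297, ATP6 at 220 and ATP8 at 14.3 CPM per kilobase. The ratio of COX1 to COX2 counts was 177 to 315 over the 6 libraries, although both messages encode core subunits of complex IV.

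The low members were mostly those with an identical annotated nuclear copy. For COX2, ATP6 and COX3, 99.4 to 99.8% of all 150-base windows of the annotated gene occurred letter for letter in a nuclear transcript of the annotation, and these 3 had 220 to 817 CPM per kilobase. For COX1 and ND4, whose identical chromosome 1 copies are partial, the shares were 23.6 and 59.15% (COX1 also has a full-length copy, Gm13340 on chromosome 2, at 97.6% identity). Their levels were 76587 and 14013 CPM per kilobase. No window of ND1, ND2, ND5 or CYTB occurred in a nuclear transcript, and these 4 had 12292 to 48135 CPM per kilobase. ATP8 had the lowest level per kilobase and 0 matching windows in annotated transcripts. Its closest annotated nuclear transcript, Gm28925, was 81.4% identical over the aligned bases, and nuclear sequence outside annotated transcripts was not searched. Most of ATP8 lies in the 230 bases between COX2 and ATP6 on mtDNA, and the chromosome 1 copies of those genes lie 233 bases apart. Having 0 windows in annotated transcripts therefore does not show that ATP8 lacks a nuclear copy.

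Protein genes of mtDNA outside the member list showed the same order. ND3, with 97.0% of its windows in a nuclear copy, had a mean of 110 CPM per kilobase, and ND4L, with 98.0%, had 47.9 CPM per kilobase, while ND6, with no such window, had 1320. Of the 7 annotated pseudogenes on chromosome 1, only Gm10222, the copy of ND4L, has its own row in the table. Gm10222 stood at 157, 128 and 15.7 CPM under VHL-KO and at 87.8, 44.0 and 160 CPM under VHL-KO;SETD2-KO, above ND4L itself in every library (16.9, 14.8 and 5.52 CPM against 13.7, 16.2 and 18.4 CPM). How reads that match both places were counted is not given in the sources used here, and its part in the levels of COX2, COX3, ATP6, ND3 and ND4L was not tested.

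**Figure D2:**
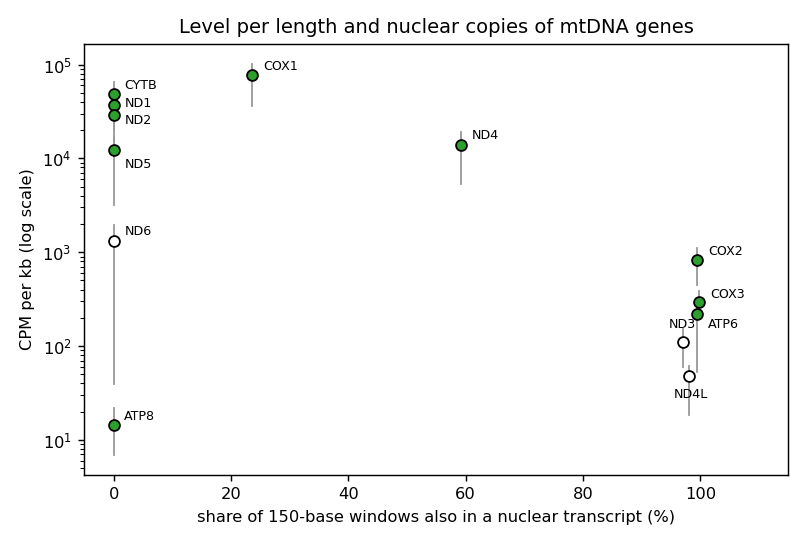
Mean level per kilobase over the 6 libraries (CPM per kilobase, log axis) of each mtDNA protein gene against the percent of its 150-base windows that occur exactly in a nuclear transcript, with members filled and lines from the lowest to the highest library. COX2, ATP6, COX3, ND3 and ND4L sit at the right with 47.9 to 817 CPM per kilobase. ATP8 is the low gene at 0%, a value that covers annotated transcripts only.

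Each member was also compared as its share of the summed member counts, a measure that does not depend on how libraries are scaled. COX1 took 42.4, 41.0 and 40.7% of the sum under VHL-KO and 41.4, 44.6 and 41.7% under VHL-KO;SETD2-KO, so its share hardly moved even where the sum itself fell. CYTB took 19.98, 19.7 and 12.7% against 20.4, 19.9 and 20.7%, and ND1 took 11.8, 12.5 and 21.2% against 12.4, 10.3 and 11.5%. Both genes thus differed in VHL-KO replicate 4 alone, in opposite directions, and the remaining 5 libraries agreed within a few percentage points. ND2 (15.4% against 9.34 to 10.9% elsewhere) was also high there, while ND5 (4.27% against 6.996 to 8.98%) and ND4 (5.34% against 6.63 to 7.49%) were low.

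The ATP6 share was the only one whose groups did not overlap, at 0.0516, 0.0463 and 0.0267% of the member sum under VHL-KO and 0.0698, 0.0528 and 0.0590% under VHL-KO;SETD2-KO. The exact permutation test (two-sided) gave p = 0.1, the smallest that 3 against 3 libraries allow. The other 9 exact p-values ran from 0.2 for ND1 and CYTB to 1 for ATP8, and in this design no share could have passed 0.05. ATP6 is also among the genes with an identical nuclear copy, so its share rests on reads whose counting is not known.

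**Figure D3:**
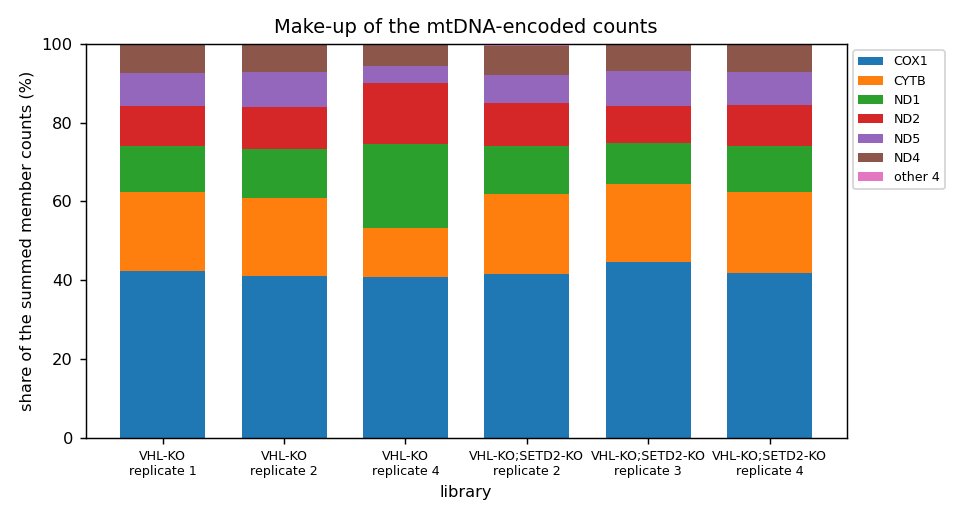
Share of each member in the summed member counts (percent), stacked for each library. COX1 stays between 40.7 and 44.6% throughout, and VHL-KO replicate 4 differs from the other 5 libraries in ND1 (21.2%), ND2 (15.4%), CYTB (12.7%) and ND5 (4.27%).

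In VHL-KO replicate 4 members further along the heavy-strand precursor tended to be lower, with COX3 as the main exception. Relative to the mean of VHL-KO replicates 1 and 2 in CPM, this library held 0.670 of ND1 and 0.567 of ND2, the genes nearest the start. It held 0.374 of COX1, 0.456 of COX2, 0.402 of ATP8, 0.208 of ATP6 and 0.567 of COX3 further along. For ND4, ND5 and CYTB, near the end, the ratios were 0.291, 0.193 and 0.245. Across the 10 members, Spearman's rho between the order along mtDNA and this ratio was -0.70, and across the 7 members with under 90% of their windows in a nuclear copy it was -0.93. With ND3 and ND4L added to the 10 members it was -0.58 over 12 genes. These are descriptions across genes of 1 library against 2, and the genes share that library and one precursor.

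Genes outside the member list extended the picture in part. ND6, transcribed from the other strand, stood at 998, 856 and 20.6 CPM under VHL-KO and at 611, 612 and 1014 CPM under VHL-KO;SETD2-KO, so that VHL-KO replicate 4 held 0.0222 of the mean of its group mates. The ratio of ND5 to ND6 counts, neighbouring genes annotated on opposite strands, was 282 there and 29.3 to 34.6 in the other 5 libraries. Their annotated ends overlap and the use of strand in counting is not known, so ND6 counts cannot be assigned to 1 strand. ND3 did not follow, as VHL-KO replicate 4 held 1.38 of the mean of its group mates (52.3 CPM against 40.01 and 35.99 CPM), and ND4L stood at 0.349. For members without a matching nuclear window, ratios within a library restate the same counts. In VHL-KO replicate 4, ND1 to CYTB was 1.67 (0.519 to 0.634 in the other 5 libraries) and ND2 to ND5 was 3.62 (1.04 to 1.56).

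**Figure D4:**
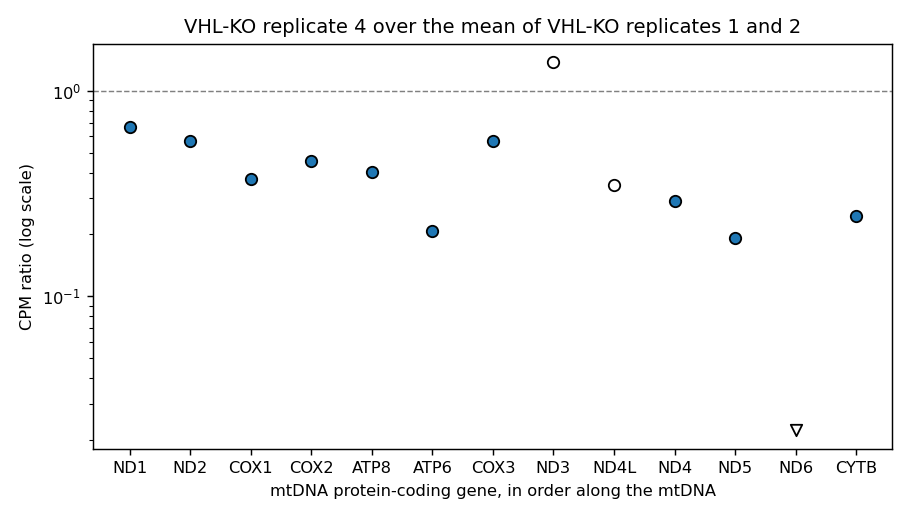
CPM in VHL-KO replicate 4 divided by the mean CPM of VHL-KO replicates 1 and 2 (log axis) for each mtDNA protein gene, in order along mtDNA, with members filled and ND6 as a triangle. The ratio goes from 0.670 at ND1 to 0.245 at CYTB, with COX3 (0.567) and ND3 (1.38) above the trend and ND6 (0.0222), on the other strand, far below it.

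The table also holds rows for the 22 transfer RNAs of mtDNA, which are short and largely lost from libraries of long RNA. They summed to 330 to 754 counts per library and 6 passed the low-count filter, 0 of which were called (edgeR). TrnM, the initiator and elongator methionine transfer RNA between ND1 and ND2, stood at 21.3 CPM in VHL-KO replicate 4 and at 0.44 to 1.75 CPM in the other 5 libraries. Its log2 fold change of -3.01 (edgeR unadjusted p = 0.0603, adjusted p = 0.625) became 0.51 without that library. TrnT, next to CYTB, was lower in every VHL-KO;SETD2-KO library (at most 12.4 CPM) than in any VHL-KO library (at least 12.7 CPM). Such a separation was seen for 11% of all tested genes. The log2 fold change of TrnT was -0.63 and did not pass the test (edgeR adjusted p = 0.629). TrnI, TrnP, TrnQ and TrnW had log2 fold changes of -0.56, 1.10, 1.11 and 0.19, with edgeR adjusted p-values of 0.830, 0.665, 0.697 and 0.914, and 1.25, 0.62, 0.56 and 0.64 without VHL-KO replicate 4.

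The 45 nuclear genes listed for copying, transcribing and processing mtDNA were all tested and 0 were called, with 23 positive and 22 negative log2 fold changes and a median of 0.00015 (edgeR). In the transcription group, Tfam, which packages mtDNA and opens its promoters, stood at 41.3, 38.2 and 7.58 CPM under VHL-KO against 27.9, 37.4 and 30.9 CPM under VHL-KO;SETD2-KO. Tfb2m, the promoter-melting factor, stood at 27.4, 20.4 and 3.83 CPM against 16.05, 17.9 and 19.7 CPM. Both were lowest in VHL-KO replicate 4, as were most members, and had log2 fold changes of 0.14 and 0.05 (edgeR adjusted p = 0.937 and 0.982). Polrmt, the mitochondrial RNA polymerase, went the other way in that library, at 27.2, 26.7 and 84.1 CPM against 17.0, 28.7 and 19.4 CPM. Its log2 fold change was -1.08, or -0.32 without VHL-KO replicate 4, and did not pass the test (edgeR adjusted p = 0.625), while Tefm, the elongation factor, had -0.15 (edgeR adjusted p = 0.913).

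Factors of RNA stability and nuclear control were also not called. Lrpprc, which with Slirp stabilises mitochondrial messages, stood at 118, 102 and 22.2 CPM under VHL-KO against 66.5, 88.8 and 77.7 CPM, and Slirp had a log2 fold change of 0.08 (edgeR adjusted p = 0.947). The log2 fold change of Lrpprc was -0.05 with all libraries (edgeR adjusted p = 0.980) and -0.50 without VHL-KO replicate 4 (edgeR unadjusted p = 0.026). Ppargc1a, a coactivator of mitochondrial biogenesis, stood at 44.6, 41.9 and 8.04 CPM against 27.5, 78.1 and 38.5 CPM (log2 fold change 0.61, edgeR adjusted p = 0.771, and 0.15 without VHL-KO replicate 4). Nrf1, a transcription factor for nuclear genes of the respiratory chain, was nearly level, at 15.9 to 17.1 CPM in all 6 libraries.

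The nuclear-encoded subunits of complexes I, III, IV and V had mostly negative log2 fold changes, under every scaling tried. Of the 75 listed, 73 were tested, 66 had a negative and 7 a positive log2 fold change, with a median of -1.04 beside 0.04 for the members, and 1 was called lower at an unadjusted p under 0.05 (edgeR; 4.68% of all tested genes met that rule). DESeq2 called 20 of them lower at an unadjusted p, beside 1133 of all 14611 tested genes, and 0 after adjustment. The gene called by edgeR was Ndufb4, an accessory subunit of complex I, at 10.1, 10.6 and 24.6 CPM under VHL-KO and 5.53, 6.03 and 6.21 CPM under VHL-KO;SETD2-KO. Its log2 fold change was -1.35 ± 0.47 (SE, edgeR unadjusted p = 0.0210, adjusted p = 0.625), and -0.81 without VHL-KO replicate 4 (edgeR adjusted p = 0.113). The medians by complex were -1.11 for I, -0.73 for III, -0.78 for IV and -0.94 for V.

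Without VHL-KO replicate 4 the median of the nuclear subunits was -0.13, with 57 negative and 16 positive values. Cox4i1, a regulatory subunit of complex IV, stood at 461, 393 and 2609 CPM under VHL-KO and at 351, 566 and 331 CPM under VHL-KO;SETD2-KO. Atp5b, the catalytic beta subunit of complex V, stood at 2012, 1891 and 5002 CPM against 1378, 1835 and 1444 CPM. In both genes VHL-KO replicate 4 was far above the other 5 libraries, which interleaved for Cox4i1 and were slightly higher under VHL-KO for Atp5b. Other subunits with the highest levels in their complex did not pass the test either, with log2 fold changes of -1.40 for Ndufv1, -0.33 for Uqcrc2, -1.41 for Cyc1, -1.50 for Cox6a1 and -0.60 for Atp5a1 (edgeR adjusted p from 0.625 to 0.777). Without VHL-KO replicate 4 these became -0.41, -0.34, -0.28, -0.08 and -0.17, and Cox4i1 and Atp5b had -0.04 and -0.33 instead of -1.47 and -0.93.

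The balance between transcripts of both genomes varied widely between libraries. Summed counts of the 10 members were 29.7, 29.4 and 3.72 times those of the 75 nuclear subunits under VHL-KO and 28.5, 17.1 and 38.9 times under VHL-KO;SETD2-KO. VHL-KO replicate 4 fell far below the rest, and VHL-KO;SETD2-KO replicate 3 was the next lowest. The 4 subunits of complex II had a median log2 fold change of -1.02 (-0.33 without VHL-KO replicate 4), and 9 genes of mitochondrial membranes and matrix had -0.46 (-0.23 without it). The main edgeR fit called 0 in either list. DESeq2 called 2 of the 4 and 1 of the 9 lower at an unadjusted p, beside 1133 of all 14611 tested genes, and 0 after adjustment.

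**Figure D5:**
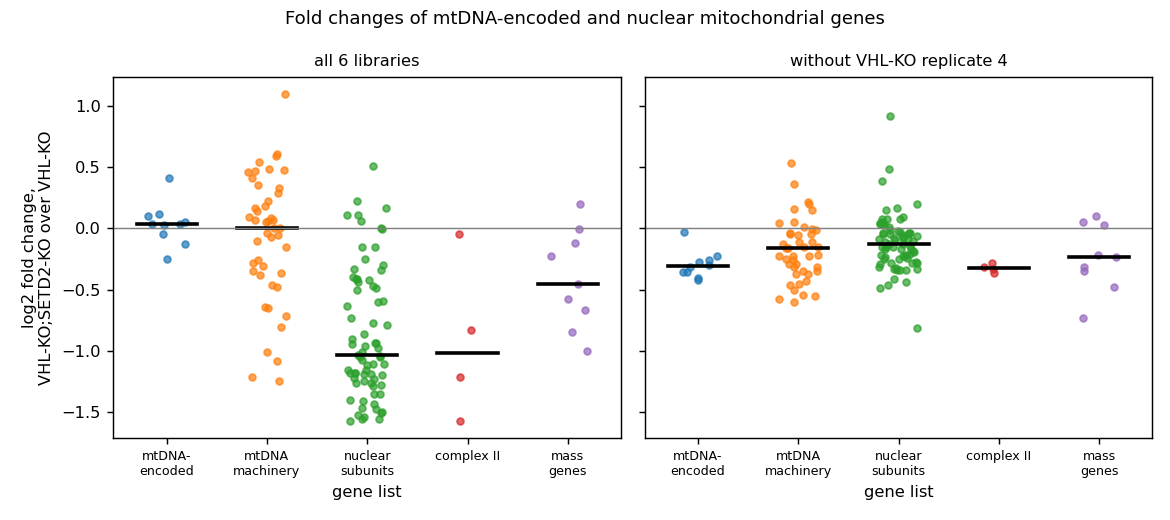
Log2 fold change (VHL-KO;SETD2-KO over VHL-KO) of each tested gene in the lists, with all 6 libraries and without VHL-KO replicate 4, and list medians as bars. The medians of the members, the machinery genes and the nuclear subunits are 0.04, 0.00 and -1.04 with all libraries and -0.31, -0.16 and -0.13 without it.

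Markers of other kidney cells varied across the same libraries. The 10 proximal tubule markers all had negative log2 fold changes and 4 were called lower at an unadjusted p under 0.05 (edgeR; 4.68% of all tested genes). Called higher were 3 of 5 podocyte markers, 1 of 6 of the thick limb and distal tubule and 1 of 7 of the collecting duct (edgeR; 2.65% of all tested genes), and 0 markers were called in either direction at an adjusted p under 0.05. The podocyte markers summed to 1437 to 2089 CPM under VHL-KO and 1971 to 4836 CPM under VHL-KO;SETD2-KO, and the endothelial markers to 1026 to 1693 and 1296 to 4032 CPM. In VHL-KO replicate 4, the library with the lowest member share, the thick limb and distal tubule markers summed to 4805 CPM (1196 and 1885 in its group mates), the collecting duct markers to 552 CPM (51.1 and 74.0), the stromal markers to 415 CPM (87.5 and 76.9), the red blood cell markers to 1884 CPM (675 and 534) and the immune markers to 222 CPM (105 and 279). Its proximal tubule sum was the highest of the 6 libraries and its endothelial sum the lowest. Single markers did not all follow their class sum there. Slc12a1 of the thick limb stood at 79.2 CPM (125 and 305) and Calb1 of the distal tubule at 42.5 CPM (82.7 and 114). Ptprc of leukocytes stood at 3.27 CPM (21.4 and 56.2) and Plvap of the endothelium at 198 CPM (15.5 and 11.5). Slc34a1 (14206 CPM against 4979 and 4759), Slc5a2, Slc22a6, Aqp1, Miox and Cyp2e1 of the proximal tubule were above both group mates. Lrp2 (940 CPM against 3384 and 3351), Cubn, Slc27a2 and Kap, also of the proximal tubule, were below both. VHL-KO;SETD2-KO replicate 3 had the lowest member share under its label and the highest thick limb and collecting duct sums there, 4095 and 283 CPM. The part of cell composition in the mtDNA values was not tested.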

How the data were processed

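RNA-seq of PTECs from 6 mice was analysed, 3 per genotype label, taken from the sample titles. The authors made directional libraries, sequenced them as paired ends and deposited a table of unnormalized read counts, 1 row per gene symbol. The submitters' processing notes name HISAT2 2.0.4 and GRCm38, while the counting program, its annotation, its use of strand and its treatment of reads with several matches are not given in the sources used here. The number of unused per-sample columns was 0.

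Counts were fitted by quasi-likelihood in edgeR 4.0.16 (R 4.3.3) after TMM scaling and filterByExpr, which kept 14611 of 46095 genes, with genotype as the only factor and Benjamini-Hochberg adjustment over all of them. Calls needed a p under 0.05, unadjusted or adjusted, and a fold change of at least 1.5. The fit was tested on simulated data first. DESeq2 1.42.0 and limma-voom (limma 3.58.1) were alternatives, with other scalings and filters, a replicate block and leaving out each library. The detection floor of 3 counts equals 0.168 to 0.269 CPM. Shares of single members were compared with a two-sided exact permutation test, using all 20 assignments of the labels.

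Positions, sequences and nuclear copies came from GENCODE M21 transcripts on GRCm38, in which every 150-base window of a gene was searched with Python 3.11.15 and Biopython 1.88. Rows for mitochondrial ribosomal RNA were not used here. The members and lists were chosen with earlier results of these data known. The genes named are all members, other mtDNA rows, Setd2, Vhl, 8 regulators, called genes of the lists, and the 2 nuclear subunits with the highest mean level in each complex, of which 1 is not reported here. Gm10222 was added after its values were seen. Nothing says that the libraries of a label were cultured or sequenced in separate batches, and the edgeR p-values set differences between labels against the spread between these libraries.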

Additional observations from a re-analysis of the deposited data

How the results depend on the processing

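The members had 0 calls under every alternative run, with both call rules. Their median log2 fold change (0.04) was -0.0091 with DESeq2's size factors and in DESeq2, 0.13 in voom, 0.27 with library totals and no TMM, and 0.59 with the replicate block, while the median of all tested genes moved from 0.0093 to 0.129, 0.289 and 0.112 under the last 3. Of the calls over all genes at an unadjusted p, 36.1% were higher in the main analysis, 72.4% without TMM, 63.3% with the block and 46.5% in voom. Replicate numbers 2 and 4 occur under both labels, and the deviations of these libraries from their group means correlated at 0.165 and -0.319. With so few libraries, 1 of them the outlying VHL-KO replicate 4, these values cannot tell whether equal numbers mark a pairing or a batch.

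The count of nuclear subunits called lower at an unadjusted p (1) was 20 in DESeq2 (1133 of 14611 tested genes) and 10 without a low-count filter (936 of 25375). It was 0 with the replicate block (54 of 14611). It was 24 without VHL-KO replicate 2 (1078 of 15164), 12 without VHL-KO replicate 1 (982 of 15139) and 1 without VHL-KO replicate 4 (1071 of 15000). Leaving out each VHL-KO;SETD2-KO library gave 0 (206 to 328 genes lower over all tested). For the machinery (0) it was 2 in DESeq2 and 0 to 1 with each library left out. Signs turned with totals and no TMM for ND1 (0.0066), ND2 (0.12), COX3 (0.20), Vhl (0.067), Tefm (0.12) and Lrpprc (0.19), with the replicate block for ND1 (0.075), ND2 (0.26), COX3 (0.42), TrnW (-0.53), Tefm (0.094), Lrpprc (0.60) and Slirp (-0.031), in RLE and DESeq2 alike for ND4 (-0.0070), COX1 (-0.020), COX2 (-0.011) and Nrf1 (-0.043), and in voom for TrnI (0.19), Lrpprc (0.26) and Nrf1 (-0.0013). With each library left out, log2 fold changes ran from -0.35 to 0.072 for ND2, -0.36 to 0.36 for ND4, -0.40 to 0.37 for ND5, -0.30 to 0.46 for CYTB, -0.32 to 0.31 for COX1, -0.26 to 0.33 for COX2, -0.28 to 0.18 for COX3, -0.032 to 0.83 for ATP6 and -0.28 to 0.57 for ATP8. They ran from -0.32 to 0.76 for ND6, -1.01 to 1.25 for TrnI, -3.82 to 0.51 for TrnM, -0.48 to 0.64 for TrnW, -0.42 to 0.12 for Vhl, -0.31 to 0.49 for Tfam, -0.43 to 0.56 for Tfb2m, -0.45 to 0.12 for Tefm, -0.50 to 0.33 for Lrpprc, -0.14 to 0.24 for Slirp and -0.0089 to 0.036 for Nrf1. Differences in the share of the member sum ran from -0.0653 to 0.824 percentage points for ND4, -0.367 to 1.89 for ND5, -0.0244 to 0.0219 for COX2, -0.0180 to 0.00283 for COX3 and -0.000254 to 0.000384 for ATP8. None of these fold changes passed at an adjusted p under 0.05, and the cause was not tested. The unadjusted call rule was met by TrnM without a low-count filter or without VHL-KO replicate 1 or 2, and by TrnP without VHL-KO replicate 2 (edgeR). ATP8, at 15 to 79 counts, is the member that depth limits most.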
